A study of Homo sapiens with 6 samples.

Results

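The insulin-like growth factor (IGF) binding proteins, the IGF and insulin receptors and the insulin receptor substrates were followed in RPE1 cells given Nutlin-3. These 10 genes were taken by symbol from the 57773 gene IDs of the deposited table: IGFBP2 to IGFBP7, IGF1R, INSR, IRS1 and IRS2. RPE1 cells are a telomerase-immortalised human line from the retinal pigment epithelium. Nutlin-3 stops MDM2, a ubiquitin ligase, from binding and degrading the transcription factor p53, and the series was made to find p53 target genes. One group of 3 libraries came from RPE1 cells given 2.5 µM Nutlin-3 for 24 h, and the other 3 from RPE1 cells given the solvent DMSO for the same time, all in medium with 10% fetal bovine serum. All 6 libraries come from the same cell line, and the labels do not say whether the triplicates are separate cultures. The p-values therefore measure the spread of these libraries alone, and that spread may be technical.

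IGFs in tissue fluid and serum bind the receptor kinase encoded by IGF1R, and at higher levels the closely related insulin receptor encoded by INSR. Both receptors phosphorylate the adaptors IRS1 and IRS2, which recruit PI3-kinase and so switch on AKT and mTOR. The secreted IGFBPs hold IGFs with an affinity close to that of the receptor, and proteases release the ligand by cutting them. IGFBP7 is the distant member of the family, with weak IGF binding. IGFBP3, IGFBP5 and IGFBP7 are also known as secreted products of senescent cells, and IGFBP3 as a p53 target gene.

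The deposited RPKM were turned back into whole reads, which came to between 28.4 and 41.1 M (1e6) per library, and each library's scaled size behind the RPKM lay between 29.8 and 42.3 M. Levels are given below as reads per M of that size (RPM), which for 1 gene is the RPKM times a fixed length, so that ratios between libraries are the same on both scales. The known p53 targets showed the treatment: CDKN1A was 7.24 times and MDM2 3.66 times its DMSO level (limma adjusted p = 6.60e-05 and 6.75e-05). Of 11 markers of retinal pigment epithelium, 3 passed the filter of a mean of 0.1 RPKM: MITF, OTX2 and RDH5. MITF did not pass (limma adjusted p = 0.792), the transcription factor gene OTX2 fell to 81.9% and the retinol dehydrogenase gene RDH5 rose to 158% of the DMSO level (limma adjusted p = 0.0333 and 5.07e-04). RPE65, the visual cycle isomerase, had between 0 and 2 reads per library, TYR had at most 1 read and TTR had none. The epithelial keratins KRT8 and KRT18 were at 223 and 164 RPM in DMSO and rose by 0.73 and 0.80 on the log2 scale (limma adjusted p = 1.25e-04 and 3.14e-04). The part of these markers in the results below was not tested. PTPRC and EPCAM had at most 6 reads and CDH5 had none.

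The windows before the transcription starts of 4 genes are shown, because the first 3 are members that rose and the last is the member with the lowest level in Nutlin-3 relative to DMSO. They are the 250 bases upstream of the start in RefSeq on GRCh38.p14, read 5′ to 3′ along the gene's strand, and capitals mark each match to the GC box GGGCGG on either strand. The windows lie at chr7:45921273-45921522 (IGFBP3, minus strand), chr2:216695550-216695799 (IGFBP5, minus strand), chr13:109786584-109786833 (IRS2, minus strand) and chr19:7294415-7294664 (INSR, minus strand).
IGFBP3: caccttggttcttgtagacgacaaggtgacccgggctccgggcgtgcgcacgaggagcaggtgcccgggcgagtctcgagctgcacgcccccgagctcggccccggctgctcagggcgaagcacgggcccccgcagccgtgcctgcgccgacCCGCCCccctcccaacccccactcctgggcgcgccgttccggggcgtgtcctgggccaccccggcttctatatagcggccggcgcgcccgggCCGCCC
IGFBP5: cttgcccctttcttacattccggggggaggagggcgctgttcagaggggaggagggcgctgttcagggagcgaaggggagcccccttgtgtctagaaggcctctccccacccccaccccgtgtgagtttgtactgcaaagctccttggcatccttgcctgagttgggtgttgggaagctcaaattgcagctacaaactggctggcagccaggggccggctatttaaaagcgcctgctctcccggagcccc
IRS2: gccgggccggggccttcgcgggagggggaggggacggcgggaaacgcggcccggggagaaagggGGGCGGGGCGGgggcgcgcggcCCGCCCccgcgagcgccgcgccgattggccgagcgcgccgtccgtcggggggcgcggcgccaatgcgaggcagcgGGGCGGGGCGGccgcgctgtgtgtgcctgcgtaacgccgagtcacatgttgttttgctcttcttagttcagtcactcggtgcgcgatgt
INSR: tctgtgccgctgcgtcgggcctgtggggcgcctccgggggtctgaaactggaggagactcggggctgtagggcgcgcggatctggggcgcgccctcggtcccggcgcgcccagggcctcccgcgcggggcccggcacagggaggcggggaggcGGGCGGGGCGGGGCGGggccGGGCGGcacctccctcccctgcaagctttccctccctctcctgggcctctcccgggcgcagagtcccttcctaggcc
The GC box occurred 2 times before IGFBP3, 5 times before IRS2 and 4 times before INSR, where neighbouring matches share a base, and not before IGFBP5. Among all 35116 windows of this length, 42.6% held it. RefSeq windows were found for 9 of the 10 genes, all but IGFBP7. Their GC content ran from 61.2% for IGFBP5 to 78.4% for INSR among the printed windows, against a median of 58% over all windows. The p53 half-site consensus, present in 5.57% of all windows, matched in none of the 4 windows, and among the other members matched once, at -32 in 1 of the 3 windows of IGFBP2. The TATA box TATAAA (either strand), present in 10.7% of windows, matched before IGFBP4, at -29. The p53 core CATG (47.6% of windows) matched before IRS2 at -45, the FOXO core GTAAACA (either strand, 2.98%) before IGFBP6 at -186, and the E-box CACGTG (6.34%) before none of the 9 genes.

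Nutlin-3 raised 4 of the 6 binding protein genes and 1 of the 2 adaptor genes. IGFBP5 was highest in relative terms at 2.69 times its DMSO level, followed by IGFBP7 at 1.84 times, IGFBP3 at 1.81 times, IRS2 at 1.49 times and IGFBP6 at 1.18 times. IGFBP4, IRS1 and IGF1R stayed between 96.6% and 107% of their DMSO levels and did not pass. INSR was at 73.4%, and its call differed between fits. The call for IGFBP6 (limma adjusted p = 0.0394) was lost in several alternative runs, given below. In bulk RNA, a change in how many cells express a gene and a change in RNA per cell cannot be told apart. The test was limma on log2(RPKM + 0.1) over the 19886 genes that averaged 0.1 RPKM or more, with Benjamini-Hochberg adjustment over all of them and a threshold of 0.05. Among these genes 20.9% rose, 18.4% fell and 39.2% changed in either direction. Of the 9 members tested, 5 rose and 4 did not pass, with a median log2 fold change of 0.23 against 0.0058 over all genes tested. IGFBP2, with a mean of 0.0847 RPKM in DMSO, missed the filter.

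A second test used limma voom on the recovered reads of the 20732 genes that averaged 10 reads or more. It is shown beside the first because the authors' RPKM divide reads by the full span of a gene with its introns. A gene with long introns such as INSR therefore has an RPKM near the added 0.1, which shrinks its log2 change. limma voom called 50.3% of genes, 26.0% upwards and 24.3% downwards. Of the 10 members, 5 rose, 1 fell and 4 did not pass.

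**Figure D1:**
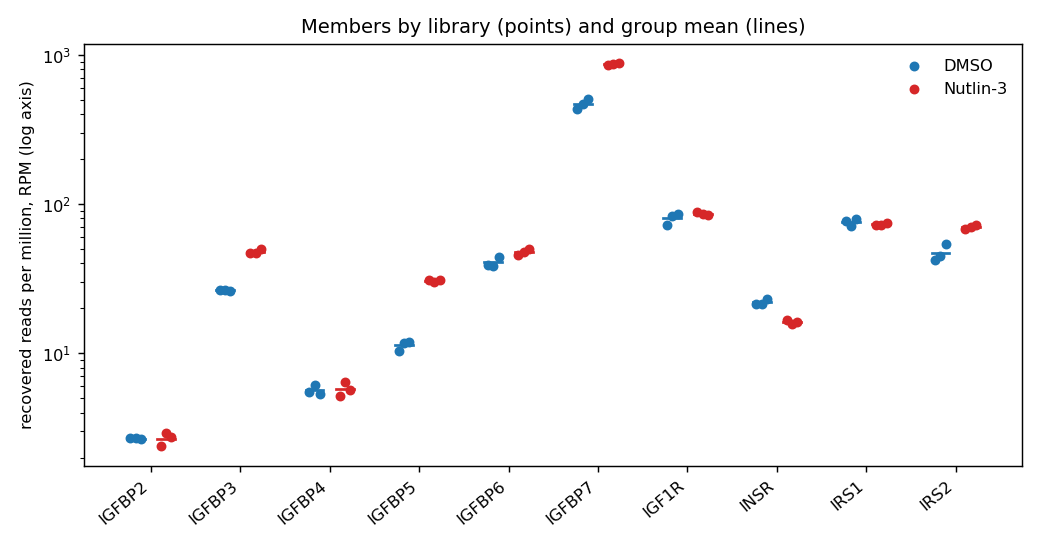
Recovered RPM on a log axis for each of the 10 genes in the 3 DMSO and 3 Nutlin-3 libraries, with a point per library and a line at each group mean. The groups stand apart for IGFBP3, IGFBP5, IGFBP6, IGFBP7, INSR and IRS2, and IGFBP7 lies above all the others, between 434 and 878 RPM.

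IGFBP7 (ENSG00000163453) was by far the most abundant of the 10. It had 18333, 13945 and 16325 reads in DMSO replicates 1 to 3 and 26737, 31071 and 26673 in Nutlin-3 replicates 1 to 3, or 434, 468 and 504 against 847, 868 and 878 RPM. Every Nutlin-3 library was above every DMSO library, and the spread within the Nutlin-3 group was the smaller one (864 ± 15.9 against 469 ± 35.0 RPM, mean ± SD, n = 3 each). The log2 fold change was 0.87 (SE 0.058, limma adjusted p = 3.78e-04). On the opposite strand, exons of IGFBP7-AS1 and of POLR2B, a subunit of RNA polymerase II, cover 18.9% of the exon length of IGFBP7. POLR2B had between 3846 and 6721 reads per library and fell (log2 fold change -0.30, limma adjusted p = 1.35e-03). IGFBP7-AS1 had 56 to 71 reads in DMSO and 95 to 123 in Nutlin-3 libraries, 1.82 times its DMSO level in RPM (limma voom adjusted p = 1.71e-05). That is close to the 1.84 times of IGFBP7 itself, and whether the antisense gene rose separately was not tested. Whether the authors counted by strand is not given in the sources used here, so reads from the shared exon stretches cannot be told apart by gene. The reads credited to IGFBP7-AS1 were at most 123 and those credited to POLR2B at most 6721 per library, against at least 13945 for IGFBP7. These credited counts set no limit on how many reads of the shared stretches came from another gene.

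IGFBP3 (ENSG00000146674) encodes the main IGF carrier of serum. Its libraries gave 26.6, 26.3 and 26.1 RPM in DMSO and 46.6, 47.2 and 49.6 in Nutlin-3. The DMSO libraries lay within 1 RPM of each other, and the groups did not overlap. The log2 fold change was 0.83 (SE 0.031, limma adjusted p = 1.17e-04).

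IGFBP5 (ENSG00000115461), which binds IGFs and matrix, was a low gene in DMSO with 438, 351 and 387 reads. In Nutlin-3 libraries it had 977, 1069 and 937 reads. In RPM these were 10.4, 11.8 and 11.9 against 30.9, 29.9 and 30.8, with no overlap. The log2 fold change was 1.26 (SE 0.053, limma adjusted p = 1.33e-04) with the added 0.1, and 1.44 on reads (95% confidence interval 1.31 to 1.57).

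IGFBP6 (ENSG00000167779), which prefers IGF2 over IGF1, had 39.2, 38.7 and 44.2 RPM in DMSO and 45.7, 47.9 and 49.9 in Nutlin-3. DMSO replicate 3 lay close to the lowest Nutlin-3 library, so the groups were separate by a narrow margin. The log2 fold change was 0.23 (SE 0.065, limma adjusted p = 0.0394). With any 1 library left out the log2 fold change stayed between 0.20 and 0.29. The call was lost without DMSO replicate 1 or 2 or any 1 Nutlin-3 replicate (limma adjusted p between 0.0566 and 0.113). It was also lost when no filter was set (adjusted p = 0.0688) and after quantile normalization (0.0749). On reads it passed (limma voom adjusted p = 4.71e-04).

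IGFBP4 (ENSG00000141753), the binding protein cut by the protease PAPPA, had 5.47, 6.14 and 5.31 RPM in DMSO and 5.16, 6.42 and 5.66 in Nutlin-3. The 2 groups overlapped, and the 95% confidence interval of the log2 difference ran from -0.19 to 0.23 (limma adjusted p = 0.877). IGFBP2 (ENSG00000115457), a binding protein abundant in fetal tissue, had 114, 80 and 86 reads in DMSO and 75, 105 and 83 in Nutlin-3. Its groups overlapped too, and on reads the interval of the log2 difference was -0.27 to 0.27 (limma voom adjusted p = 0.998).

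Some genes of the family lie next to each other in the genome. In RefSeq no gene stands between IGFBP2 and IGFBP5, or between IGFBP1 and IGFBP3. IGFBP5 was at 2.69 times and IGFBP2 at 1.00 times its DMSO level. IGFBP1, the binding protein that insulin represses in liver, had 21, 13 and 10 reads in DMSO and 11, 13 and 10 in Nutlin-3, and its log2 difference on reads was -0.23 (limma voom adjusted p = 0.548), against 0.85 for IGFBP3. The differences between neighbours were not tested.

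Taken per kilobase of the longest principal GENCODE transcript, IGFBP7 made up 86.1% ± 0.509 of the IGFBP reads in DMSO and 89.5% ± 0.188 in Nutlin-3 (mean ± SD, n = 3). IGFBP6 followed with 9.14% ± 0.370 and 6.04% ± 0.146, and IGFBP3 with 3.07% ± 0.244 and 3.12% ± 0.0571. IGFBP2, IGFBP4 and IGFBP5 each held under 1% in every library. The share of IGFBP5 went from 0.480% ± 0.0173 to 0.726% ± 0.0233. The 6 genes together had 518, 554 and 594 RPM in DMSO and 977, 1002 and 1016 in Nutlin-3, so the sum largely follows IGFBP7. These shares are a description.

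The order of levels per kilobase of that transcript in DMSO was IGFBP7 (328 ± 24.5 RPM per kilobase), IGFBP6 (34.8 ± 2.64), IGFBP3 (11.7 ± 0.112), IRS1 (7.80 ± 0.382), IGF1R (6.54 ± 0.573), IRS2 (5.77 ± 0.780), INSR (4.66 ± 0.217), IGFBP4 (2.56 ± 0.202), IGFBP2 (1.86 ± 0.0156) and IGFBP5 (1.83 ± 0.140). IGF1R and IRS2, and likewise IGFBP2 and IGFBP5, lay within their spread of each other. In Nutlin-3 libraries IRS2 (8.63 ± 0.261) stood above IRS1 (7.54 ± 0.148) and IGF1R (7.00 ± 0.165), and IGFBP5 (4.91 ± 0.0957) above INSR (3.42 ± 0.120), IGFBP4 (2.61 ± 0.289) and IGFBP2 (1.86 ± 0.196). The order rests on the length chosen: over all merged exons IGFBP3 had 5.77 RPM per kilobase in DMSO, level with IRS2 at 5.77 and IGF1R at 5.74, and INSR had 2.10, under IGFBP4 at 2.56. IGFBP7 and IGFBP6 were first and second with both lengths.

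**Figure D2:**
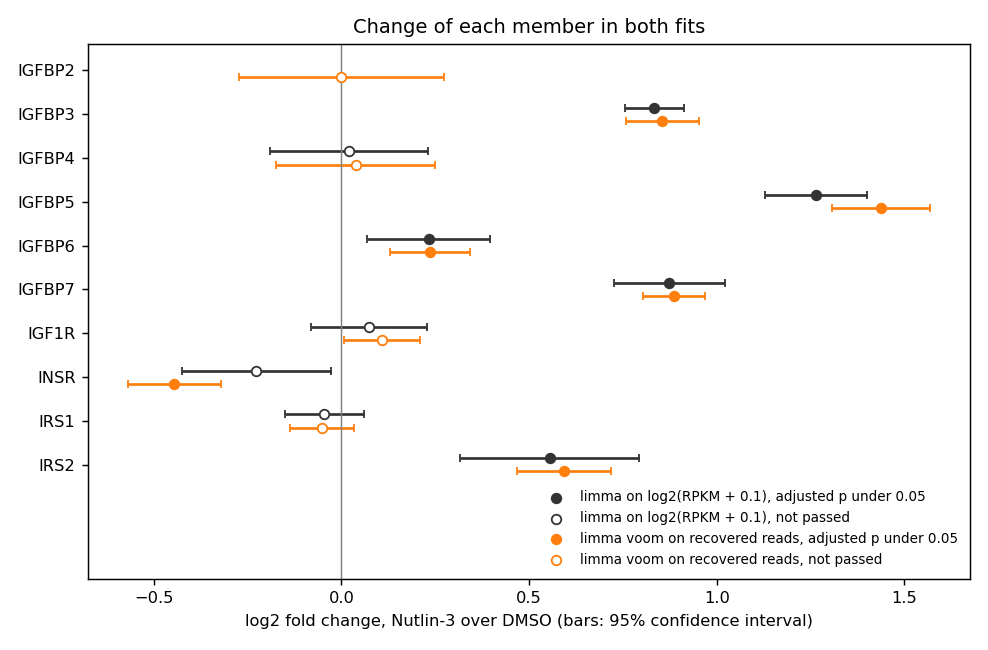
Log2 fold change of each gene, Nutlin-3 over DMSO, from limma on log2(RPKM + 0.1) and from limma voom on recovered reads, with 95% confidence intervals. Filled points passed an adjusted p of 0.05: IGFBP3, IGFBP5, IGFBP6, IGFBP7 and IRS2 in both fits, and INSR on reads, at -0.44. IGFBP2 has no point from the RPKM fit.

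Of the receptors, IGF1R (ENSG00000140443) had 72.0, 82.6 and 85.3 RPM in DMSO and 87.8, 85.2 and 83.9 in Nutlin-3. DMSO replicate 1 was the lowest library and the other 5 lay close together, with overlap between the groups. The log2 difference was 0.073 (95% confidence interval -0.081 to 0.23, limma adjusted p = 0.403), and 0.11 on reads (limma voom adjusted p = 0.0734). Without DMSO replicate 1 the difference was 0.021, and 0.028 on reads (limma voom adjusted p = 0.584).

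INSR (ENSG00000171105) had 907, 636 and 751 reads in DMSO and 528, 558 and 491 in Nutlin-3. In RPM this was 21.5, 21.3 and 23.2 against 16.7, 15.6 and 16.2, and every Nutlin-3 library was below every DMSO library. On log2(RPKM + 0.1) the difference was -0.23 (SE 0.078, 95% confidence interval -0.42 to -0.029), which did not pass (limma adjusted p = 0.0726). On reads it was -0.44 (SE 0.059), which passed (limma voom adjusted p = 9.92e-07). The call on reads held with each library left out in turn, with log2 differences from -0.47 to -0.41 and adjusted p of at most 5.45e-05.

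Of the adaptors, IRS1 (ENSG00000169047) had 76.7, 71.6 and 78.8 RPM in DMSO and 72.2, 72.4 and 74.8 in Nutlin-3. The groups overlapped, and the 95% confidence interval of the log2 difference ran from -0.15 to 0.059 (limma adjusted p = 0.441). IRS2 (ENSG00000185950), the adaptor that FOXO factors induce when insulin signalling is low, had 42.1, 44.7 and 54.2 RPM in DMSO and 68.1, 70.2 and 72.3 in Nutlin-3. DMSO replicate 3 was well above the other DMSO libraries but below all Nutlin-3 libraries. The log2 fold change was 0.55 (SE 0.094, limma adjusted p = 7.72e-03). Of the 9 members tested, 6 had groups that did not overlap, a share to be read against 53.3% of all genes tested.

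Because the members of each pair moved differently, their ratio was followed per library, as reads per kilobase of merged exon. IGF1R over INSR was 2.52, 2.90 and 2.76 in DMSO and 3.94, 4.10 and 3.89 in Nutlin-3. IRS2 over IRS1 was 0.671, 0.763 and 0.840 in DMSO and 1.15, 1.19 and 1.18 in Nutlin-3, so the more abundant adaptor transcript per length was IRS1 in each DMSO library and IRS2 in each Nutlin-3 library. IGFBP7 over IGFBP6 was 7.73, 8.44 and 7.94 in DMSO and 12.9, 12.6 and 12.3 in Nutlin-3. Per kilobase of the longest principal transcript the mean ratios went from 1.40 to 2.05 for IGF1R over INSR, from 0.739 to 1.14 for IRS2 over IRS1 and from 9.44 to 14.8 for IGFBP7 over IGFBP6. None of the 3 ratios overlapped between the groups, and they were given no test since the pairs were chosen with these values known.

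**Figure D3:**
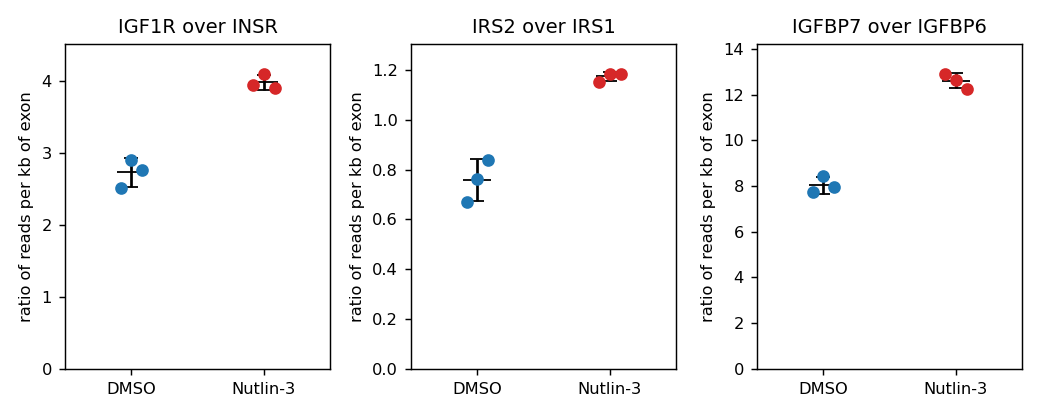
Ratios of reads per kilobase of merged exon in each library (points) with mean and SD (n = 3), on axes from 0. IGF1R over INSR went from 2.73 ± 0.195 to 3.98 ± 0.108, IRS2 over IRS1 from 0.758 ± 0.0847 to 1.17 ± 0.0179 and IGFBP7 over IGFBP6 from 8.04 ± 0.368 to 12.6 ± 0.331, without overlap.

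The ligands were at or near the floor of detection. INS, which encodes insulin, had 0 reads in every library, which allows at most between 0.0710 and 0.101 RPM (3 reads, counting error only). IGF1 had 4 to 9 reads and IGF2 0 to 5 reads per library, and all 3 ligand genes share exon sequence with other annotated genes. The IGFs and insulin of the serum in the medium are not seen by RNA-seq.

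The remaining genes of the pathway were taken from 12 lists of 110 genes, 109 of which matched an ID. Of the 84 tested, 29 rose, 17 fell and 38 did not pass, with a median of 0.073. The share that changed was 46 of 84, against 39.2% of all genes tested. The counts for each list below stand beside 20.9% of all genes that rose and 18.4% that fell. On reads, 39 of 97 listed genes rose and 23 fell. Members of the lists are described in the order of the signal, from the cell surface inwards.

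Outside the cell, 7 of 8 tested genes of the list of IGFBP proteases and their inhibitors rose, with a median of 0.45. The gelatinase gene MMP2 rose from 18.0 ± 0.864 to 26.7 ± 0.531 RPKM. Those that rose also included PAPPA, which cuts IGFBP4, its inhibitors STC1 and STC2, HTRA1 and CTSD, and ADAM12 did not pass (limma adjusted p = 0.0704). On reads 8 of 9 rose, and PAPPA2, too low for the RPKM fit, fell. The mannose 6-phosphate receptor gene IGF2R, which clears IGF2, rose from 2.54 ± 0.0802 to 3.35 ± 0.0310 RPKM (log2 fold change 0.38, limma adjusted p = 6.28e-04). PAPPA, STC1, STC2, HTRA1, CTSD, ADAM12 and PAPPA2 were named after their values were seen.

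Among cell surface partners of IGFBP3, LRP1, a scavenger receptor, rose from 14.3 ± 1.09 to 24.9 ± 0.343 RPKM and TMEM219, a proposed IGFBP3 receptor, from 1.28 ± 0.0345 to 1.73 ± 0.0539 RPKM, while caveolin 1 (CAV1) did not pass. Of 4 tested genes that share the IGFBP domain, CRIM1, a transmembrane BMP antagonist, rose to 157% and CCN3, a matricellular regulator, fell to 80.5% of the DMSO level, and CCN1 and CCN2 did not pass. CCN2 passed on reads (log2 fold change 0.22, limma voom adjusted p = 1.66e-03). Of 3 genes for IGF2 mRNA binding proteins, IGF2BP1 fell to 87.2% of the DMSO mean. That call was lost with any 1 library left out (limma adjusted p from 0.0680 to 0.106), and quantile normalization or the lack of a filter ended it too.

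Inside the cell, 2 of 13 other adaptor genes rose, 4 fell and 7 did not pass. SHC1, which leads from receptors to RAS, rose from 24.7 ± 0.209 to 38.5 ± 0.359 RPKM (log2 fold change 0.64, limma adjusted p = 9.63e-05), and the adaptor gene SH2B1 rose to 111% of its DMSO level. The docking protein gene GAB1 fell to 77.8% and CRKL to 84.8%. The call for GAB1 was lost without DMSO replicate 2 or 3 or any 1 Nutlin-3 replicate (limma adjusted p from 0.0820 to 0.103). It was lost without a filter (0.0688) and after quantile normalization (0.0702), and passed on reads (limma voom adjusted p = 3.10e-05).

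Of 6 PI3-kinase subunit genes, 3 rose and none fell. The regulatory subunit genes PIK3R2 and PIK3R3 rose to 143% and 153% of their DMSO levels (limma adjusted p = 2.49e-03 and 1.82e-03). Other GENCODE genes on the same strand share 87.2% of the exon length of PIK3R2 and 17.4% of that of PIK3R3, so both values are uncertain. The length recovered for PIK3R3 was also 46.8% off its GENCODE span. Of the catalytic subunit genes, PIK3CD rose to 119% of its DMSO level (limma adjusted p = 9.97e-03). PIK3CA, the catalytic p110α, and PIK3CB did not pass (limma adjusted p = 0.962 and 0.174). PIK3CB fell on reads (limma voom adjusted p = 8.88e-03). These catalytic genes were named after their values were seen. In the AKT and mTOR branch 3 of 20 genes rose and 5 fell, close to the shares over all genes. EIF4EBP1, the translation repressor that mTORC1 inactivates, fell from 1.37 ± 0.0137 to 0.966 ± 0.0411 RPKM and RHEB, the GTPase that activates mTORC1, from 2.35 ± 0.103 to 1.84 ± 0.0220 RPKM. TSC1, a brake on RHEB, rose to 112%, a call lost without Nutlin-3 replicate 2 (limma adjusted p = 0.0549). AKT1S1, an mTORC1 inhibitor, rose to 117%, a call lost without replicate 1 or 2 of DMSO or 2 or 3 of Nutlin-3 (limma adjusted p from 0.102 to 0.130). That call was also lost without a filter (0.0825), after quantile normalization (0.0589) and without the mean-variance trend (0.0548).

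Of 18 tested brakes on insulin and IGF signalling, 7 rose and 5 fell. PIK3IP1, a membrane inhibitor of PI3-kinase, rose from 1.01 ± 0.158 to 2.40 ± 0.0720 RPKM (log2 fold change 1.18, limma adjusted p = 1.10e-03), and PHLDA3, which keeps AKT from the membrane and is a p53 target, rose to 194% of its DMSO level. PHLDA3 shares 19.1% of its exon length with AC096677.2 on the same strand, which makes its value uncertain. SOCS6 fell to 81.6%, a call lost without replicate 1 or 3 of either group (limma adjusted p from 0.0732 to 0.0768 with 1 of them left out). The AKT phosphatase gene PHLPP1 fell to 73.7%, a call lost with any 1 library left out (limma adjusted p from 0.0608 to 0.126). It was lost after quantile normalization (0.128) and passed on reads (limma voom adjusted p = 2.13e-07).

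FOXO factors are held out of the nucleus by AKT. Of 8 tested FOXO factors and targets, 3 rose and 1 fell. CITED2, a transcriptional co-regulator, rose from 58.7 ± 3.43 to 102 ± 6.02 RPKM (log2 fold change 0.80, limma adjusted p = 6.03e-04). FOXO4 rose to 126%, a call lost without DMSO replicate 1 or 3 or any 1 Nutlin-3 replicate (limma adjusted p from 0.0539 to 0.0931). It was lost without a filter too (0.06). SOD2, the mitochondrial superoxide dismutase, fell to 90.0%, a call lost without any 1 Nutlin-3 replicate (limma adjusted p from 0.0551 to 0.0689).

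**Figure D4:**
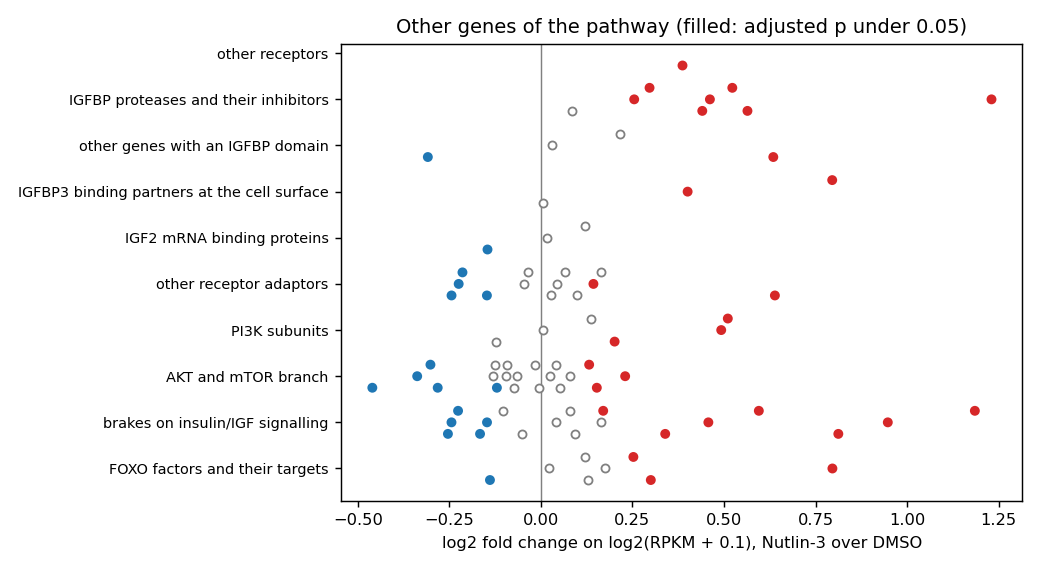
Log2 fold change on log2(RPKM + 0.1) of the 84 tested genes in 10 lists, 1 point per gene, staggered vertically for legibility. Filled points passed an adjusted p of 0.05, red for genes that rose and blue for genes that fell. All 8 tested proteases and inhibitors lie to the right of 0, and 7 of them are filled.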

How the data were processed

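Poly(A) RNA of 6 libraries was sequenced with a stranded kit, per the labels' protocols. The submitters' processing notes name hg19, TopHat2, CASAVA 1.8.2 and edgeR, but not what each was used for. Which counter and annotation were used, and whether strand was used, is not given in the sources used here. Values were deposited as RPKM by the authors, 1 column per library. Low values were whole reads over the whole GENCODE 29 gene span in 89.2% of cases (within 0.01 of a read), against 31.3% over merged exons. The library size used for both shares was itself set from the span, which favours the span in this comparison. For 27538 genes the annotated span gave whole reads. For a further 8825, IGFBP3, IGFBP4, IGF1R and IRS2 among them, a whole length that gives whole reads in every library was found. For these 4 genes it differed from the GENCODE span by at most 3.36%. The difference was larger for PIK3R3 (46.8%), PHLDA3 (22.8%), SOD2 (22.8%), CITED2 (16.0%) and MDM2 (12.4%). The RPKM and their ratios between libraries do not use this recovered length.

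limma 3.58.1 in R 4.3.3 (lmFit and trended eBayes, 1 term for the group) was run on log2(RPKM + 0.1) for genes averaging 0.1 RPKM or more. The added 0.1 makes the fold changes of low genes too small. limma voom on recovered reads was an alternative, and both were tested on simulated data. Replicates differed by more than sampling noise (chi-square per gene of 1.63 to 4.82 within groups). The labels name no batch. Lists were described by counts and medians. Named genes are all members, CDKN1A, MDM2, the ligands, IGFBP1 and, per list, up to 2 largest rises and 2 largest falls past the threshold. Some of these are not reported here. The members, lists and thresholds were chosen with earlier results of these data known. The gene tables used gave a symbol for 52338 IDs.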

Additional observations from a re-analysis of the deposited data

How the results depend on the processing

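Of the 10 genes, IGFBP3, IGFBP5, IGFBP7 and IRS2 rose under each alternative run, and IGFBP6 and INSR changed calls as given above. INSR also passed in the RPKM fit with a pseudocount of 0.5 (limma adjusted p = 0.0476), without a filter (0.0270) and without the mean-variance trend (5.21e-03). It did not pass with a pseudocount of 0.02, where the log2 difference was -0.37 (limma adjusted p = 0.0806). Median-of-ratios scaling (0.0730), quantile normalization (0.230) and the replicate block (0.190) gave no call either. Nor did INSR pass with any 1 library left out of the RPKM fit (0.1255 to 0.178). IGF1R passed in limma voom without DMSO replicate 2 or 3 (adjusted p = 0.0419 and 0.0117), but was at 0.584 without DMSO replicate 1. The number of members called lay between 4 and 5 with each library left out of the RPKM fit, that of other pathway genes between 32 and 37 (46 with all libraries), and that of all genes between 5858 and 6644 (7803 with all). A call lost in such a smaller fit therefore does not by itself single out the library left out. The log2 fold change there lay from -0.29 to -0.20 for GAB1, 0.18 to 0.28 for AKT1S1 and -0.30 to -0.22 for SOCS6. It lay from 0.23 to 0.37 for FOXO4 and -0.15 to -0.12 for SOD2. limma voom left-one-out fits, chosen after seeing the data, called 6 or 7 members. No named gene reversed with a call, and IGFBP4, without a call, changed sign when some libraries were left out. Same-numbered replicates did not deviate together (correlations of -0.034, -0.0233 and -0.0134). Whether same-numbered libraries were handled together cannot be told from these values. With the replicate block 5520 genes, 5 members and 30 other pathway genes were called. Depth limits IGFBP2, IGFBP1 and the ligands, with at most 114 reads per library. Scalings moved the median change of all genes by less than 0.1.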

Other observations

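Some genes of the pathway were too low in RPKM for the filter and had enough reads for the second test. INPP5D encodes SHIP1, a lipid phosphatase known from blood cells that removes the product of PI3-kinase. It had 4, 5 and 4 reads in DMSO and 37, 52 and 40 in Nutlin-3 libraries. It reached the minimum of 10 reads through the Nutlin-3 group alone, and its reads rest on a length 29.7% off the GENCODE span, so no fold or test is given. HTRA3, a secreted protease with an IGFBP domain, was at 0.877 RPM in DMSO and 0.401 in Nutlin-3 (log2 fold change -1.13, limma voom adjusted p = 2.46e-03). PAPPA2, a protease of IGFBP5 and IGFBP3, was at 1.88 and 1.28 RPM (-0.55, limma voom adjusted p = 0.0117), the opposite direction to its relative PAPPA (0.61, limma voom adjusted p = 4.43e-12). All of these were chosen after their values were seen.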
